A study of Danio rerio with 52 samples.

Results

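The genes described here encode the nuclear part of the mitochondrial respiratory chain and the mitochondrial ribosome of zebrafish, measured in cells sorted from larval skin. They were chosen by symbol. Symbols starting with nduf, uqcr, sdha to sdhd, cox4 to cox8 and atp5 gave 102 respiratory chain genes, and mrpl or mrps followed by a digit gave 67 mitochondrial ribosome genes. That makes 169 of the 19260 genes tested, each read from 1 probe set, the one with the highest mean over all arrays. The symbol rule itself uses no measured values, but it was chosen with earlier results of these data known. By role the respiratory chain genes comprise 7 core and 29 accessory subunits of complex I, 8 complex I assembly factors, 5 genes of complex II with 4 assembly factors, 8 of complex III and 19 of complex IV. The rest are 3 genes of the ndufa4 family, cox7a2l, 16 genes of ATP synthase and 2 of its inhibitors. Of the ribosome genes, 43 carry mrpl and 24 carry mrps symbols.

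The lateral line senses water movement through neuromasts in the skin, in which support cells surround the hair cells and mantle cells form the rim. All larvae were 4 days old, about 50 skins went into a sample, and 1 ng of RNA was amplified for each of the 52 arrays. Untreated larvae gave GFP+ hair cells of an alpl:mCherry;pou4f3:GFP line (n = 2), mCherry+/GFP+ mantle cells of an alpl:mCherry line crossed to the enhancer trap ET20 (n = 4, here double-positive mantle cells), mCherry+ mantle cells (n = 5) and non-fluorescent cells (n = 6). Hair cells and double-positive cells were pooled from several sorts. The mCherry+ and non-fluorescent cells were also taken after a 1 h bath in 5 µM copper sulphate, which kills lateral line hair cells. They were collected at 1 h (n = 4 mCherry+, n = 7 non-fluorescent), 3 h, 5 h and 11 h (n = 4 in each population and time). The labels do not say which line the mCherry+ and non-fluorescent cells came from, nor whether arrays of a group came from separate clutches, so p-values measure the spread between these arrays, and the submitters left out some samples that stood apart.

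Complexes I to IV pass electrons from NADH and succinate to oxygen, complexes I, III and IV pump protons across the inner mitochondrial membrane, and ATP synthase, often called complex V, uses the proton gradient to make ATP. The mitochondrial genome encodes only a few subunits of these complexes, which the mitochondrial ribosome translates, so every gene here is nuclear and its protein is imported. Hair cells are known for dense mitochondria, which buffer calcium and supply ATP for mechanotransduction and synaptic release.

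Values are deposited log2 signals after robust multi-array averaging (RMA). A log2 difference of 1 is a 2-fold change, and a level is never compared between genes. Differences were tested with limma across all 19260 genes, and a gene was called at an adjusted p below 0.05 (Benjamini and Hochberg). Marker genes fitted the labels of the hair cells, whose 8 hair cell markers averaged 8.89 to 8.96 per array, against at most 5.19 in double-positive, 5.03 in mCherry+ and 5.08 in non-fluorescent arrays. Mantle and support markers (5 genes) averaged 9.24 to 9.79 in double-positive, 7.63 to 7.95 in mCherry+ and 5.92 to 6.53 in non-fluorescent arrays, but also 7.91 to 7.96 in hair cells. Connective tissue markers (5 genes) averaged 4.78 to 4.94 in hair cell, 6.92 to 8.27 in double-positive and 9.74 to 9.93 in mCherry+ arrays, against 8.93 to 9.47 in non-fluorescent arrays. All mCherry+ arrays thus lay above all non-fluorescent arrays in connective tissue markers. In mantle and support markers they lay below all double-positive arrays. They are called a mantle population here by their labels, and which cells this sort holds was not tested. The 52 arrays fall into sets with different overall means, 4.27 to 4.30 for all untreated arrays, 4.29 to 4.37 for treated mCherry+ arrays and 4.45 to 4.48 for treated non-fluorescent arrays. Array set and copper treatment therefore cannot be told apart.

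Hair cells held the highest respiratory chain signal of the 4 untreated populations, and double-positive mantle cells the lowest. The mean of the 102 genes was 7.56 and 7.58 in the hair cell arrays, 6.76 ± 0.145 in double-positive cells (SD, n = 4), 7.06 ± 0.0637 in mCherry+ cells (SD, n = 5) and 7.37 ± 0.118 in non-fluorescent cells (SD, n = 6). Double-positive arrays spanned 6.61 to 6.93, mCherry+ arrays 6.98 to 7.15 and non-fluorescent arrays 7.19 to 7.56, so that the mantle populations and the non-fluorescent cells did not overlap, while the highest non-fluorescent and the lower hair cell array were both at 7.56. The mitochondrial ribosome was ordered differently. Its 67 genes averaged 6.03 in both hair cell arrays, 5.49 ± 0.227 in double-positive cells (SD, n = 4), 5.68 ± 0.0768 in mCherry+ cells (SD, n = 5) and 6.22 ± 0.135 in non-fluorescent cells (SD, n = 6). Here the hair cells lay within the range of the non-fluorescent arrays (6.01 to 6.41), and the 2 mantle populations overlapped. The mean of all tested genes was 5.04 in hair cells, double-positive and mCherry+ cells, and 5.09 in non-fluorescent cells. In bulk samples a smaller share of cells rich in a transcript and less of it in each cell cannot be told apart. Untreated non-fluorescent replicates 5 and 6 lay close together in marker averages. Keratinocyte markers averaged 9.66 and 9.67 (group range 9.26 to 10.31) and leukocyte markers 6.0 and 5.98 (group range 4.55 to 7.11). Whether these arrays are independent was not tested, and SD and p-values for non-fluorescent cells treat them as independent.

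**Figure D1:**
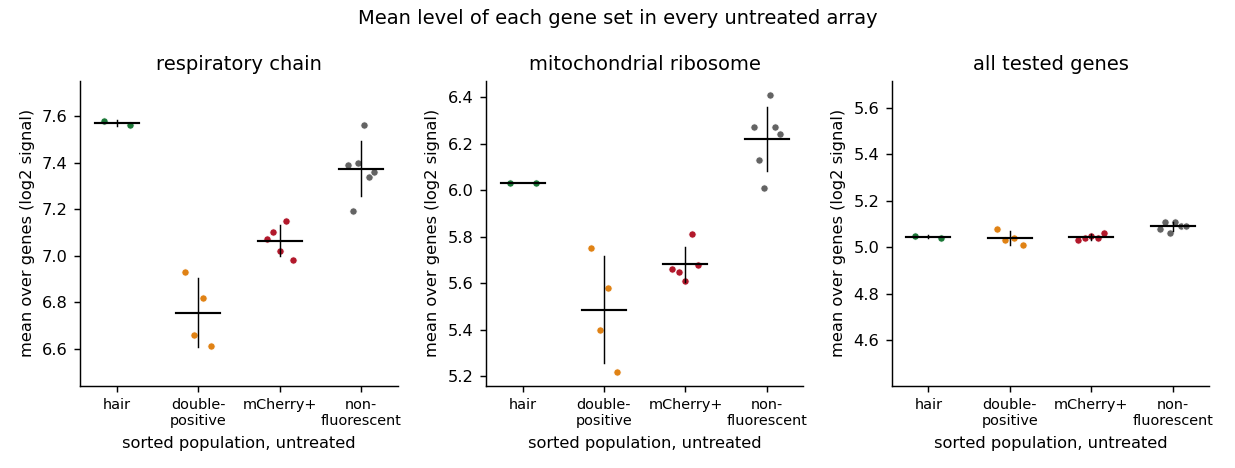
Mean log2 signal per array of the respiratory chain genes, the mitochondrial ribosome genes and all tested genes (y axes) in the 4 untreated populations (x axis, hair cells leftmost); points are arrays, bars means and vertical lines SD. Respiratory chain means of hair cells (7.56 and 7.58) lie above all double-positive and mCherry+ arrays, while ribosome means of hair cells (6.03) lie within the non-fluorescent range.

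Most respiratory chain genes called between hair cells and either mantle population were higher in hair cells. Against double-positive cells 60 of 102 genes were called, 59 higher in hair cells and 1 lower (58.8%, where 35.4% of all tested genes were called, 17.2% higher and 18.2% lower). The median difference of the 102 genes was 0.92, and that of all tested genes 0.01. Against mCherry+ cells 35 were higher and 2 lower (36.3%, where 35.6% of all tested genes were called, 17.6% higher and 18.0% lower), with a median of 0.48 against -0.03 for all tested genes. The share called against mCherry+ cells was thus near that of all genes, and only its direction, 35 of 37 higher, stood away from them. Mitochondrial ribosome genes were called in 16 of 67 cases against double-positive cells, all higher in hair cells (23.9%, median 0.54). Against mCherry+ cells 9 were higher and 1 lower (14.9%, median 0.33). Both ribosome shares were below those of all tested genes. Leaving out hair cell replicate 1 left 38 respiratory chain genes called against double-positive and 19 against mCherry+ cells, and leaving out replicate 2 left 18 against mCherry+ cells. The ribosome counts without hair cell replicate 1 and without replicate 2 were 6 and 5 against double-positive cells, and 4 and 2 against mCherry+ cells. The counts per complex that follow stand beside the same shares of all tested genes. Those were 35.4% called and 17.2% higher against double-positive cells, and 35.6% called and 17.6% higher against mCherry+ cells. Against mCherry+ cells the called shares of complex I core and accessory subunits and of complex IV were near that of all tested genes.

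Complex I, which oxidises NADH, had 24 of 36 core and accessory subunits higher in hair cells than in double-positive cells (median 0.95) and 14 higher than in mCherry+ cells (median 0.63). All called subunits were higher. The core subunit ndufv1, the flavoprotein that takes electrons from NADH, measured 8.51 and 8.43 in hair cells, 7.54, 7.13, 7.34 and 7.01 in double-positive cells, and 7.27, 7.24, 7.02, 7.05 and 6.89 in mCherry+ cells. The lowest, median and highest of the 6 non-fluorescent arrays were 7.08, 7.35 and 7.81. Both hair cell arrays thus exceeded all 15 others. The hair cell difference was 1.22 ± 0.20 against double-positive (SE, adjusted p = 0.000114 in limma), 1.38 ± 0.20 against mCherry+ (adjusted p = 1.65e-05) and 1.06 ± 0.19 against non-fluorescent cells (adjusted p = 0.000241). The accessory subunit ndufb5 measured 7.13 and 7.09 in hair cells, 5.9, 5.73, 5.58 and 5.78 in double-positive cells, and 6.21, 6.16, 6.47, 6.12 and 6.15 in mCherry+ cells, and spanned 6.07 to 6.38 with a median of 6.21 in non-fluorescent cells. Hair cells lay above every other array here too, by 1.36 ± 0.16 over double-positive (SE, adjusted p = 1.3e-06 in limma) and 0.88 ± 0.15 over non-fluorescent cells (adjusted p = 0.000104). Not every core subunit moved: ndufs1, the large iron-sulphur subunit, was called in none of the 6 population comparisons, and its hair cell differences were 0.16 against double-positive, 0.53 against mCherry+ and 0.36 against non-fluorescent cells (adjusted p = 0.669, 0.0981 and 0.25 in limma). Of the 8 assembly factors, which help build complex I and are not part of it, limma called 0 against double-positive cells (1 at an unadjusted p below 0.05), with a median of 0.23. Against mCherry+ cells 1 was called, ndufaf5, lower in hair cells by -1.0 ± 0.28 (SE, adjusted p = 0.00959).

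Complex II, which feeds electrons from succinate, had 3 of 5 subunits higher in hair cells than in double-positive cells and 2 higher than in mCherry+ cells. Its flavoprotein sdha measured 8.54 and 8.35 in hair cells, 7.83, 6.83, 7.79 and 6.75 in double-positive cells, and 7.64, 7.28, 7.38, 7.59 and 7.47 in mCherry+ cells. Both hair cell arrays were above all arrays of both mantle populations, and also above the non-fluorescent arrays, which reached 8.12. The differences were 1.14 ± 0.28 over double-positive (SE, adjusted p = 0.00407 in limma) and 0.97 ± 0.28 over mCherry+ cells (adjusted p = 0.00926), and without hair cell replicate 1 their adjusted p were 0.0541 and 0.0985.

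Complex III, which passes electrons from ubiquinol to cytochrome c, had 5 of 8 genes higher in hair cells than in double-positive cells (median 1.08) and 4 higher than in mCherry+ cells (median 0.81). The Rieske iron-sulphur protein gene uqcrfs1 measured 8.21 and 8.57 in hair cells, 7.16, 6.41, 5.93 and 6.6 in double-positive cells, 7.56, 7.41, 7.32, 7.52 and 7.2 in mCherry+ cells, and spanned 7.59 to 8.19 with a median of 7.85 in non-fluorescent cells. The 4 populations were fully separated for this gene, with hair cells at the top and double-positive cells at the bottom. It was higher in hair cells by 1.86 ± 0.26 over double-positive (SE, adjusted p = 1.52e-05 in limma) and by 0.99 ± 0.25 over mCherry+ cells (adjusted p = 0.00424, and 0.0899 without hair cell replicate 2). The small subunit uqcrq was higher by 1.73 ± 0.26 over double-positive cells (SE, adjusted p = 4.26e-05 in limma).

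Complex IV, cytochrome c oxidase, had 11 of 19 genes higher in hair cells than in double-positive cells and 1 lower, and 6 higher and 1 lower than in mCherry+ cells. The gene that went down was the same in both, cox7a2b. Several subunits of this complex have duplicate genes or isoforms in zebrafish, and these did not move together. For cox7a2b, which encodes a small subunit VIIa, hair cells measured 7.22 and 6.91, double-positive cells 8.28, 7.38, 8.36 and 8.43, and mCherry+ cells 8.14, 8.18, 8.38, 7.99 and 8.45. Non-fluorescent cells spanned 8.29 to 8.7 with a median of 8.57, so both hair cell arrays were the lowest of all 17. The difference was -1.04 ± 0.25 against double-positive (SE, adjusted p = 0.00281 in limma, and 0.0581 without hair cell replicate 2), -1.16 ± 0.24 against mCherry+ (adjusted p = 0.000761) and -1.48 ± 0.23 against non-fluorescent cells (adjusted p = 6.26e-05). Its duplicate cox7a2a went the other way. It measured 9.18 and 8.97 in hair cells, 8.08, 7.07, 8.08 and 7.42 in double-positive cells, and 8.36, 8.39, 8.15, 8.56 and 7.78 in mCherry+ cells. Hair cells were higher by 1.41 ± 0.29 over double-positive (SE, adjusted p = 0.00083 in limma) and 0.83 ± 0.28 over mCherry+ cells (adjusted p = 0.0275).

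The ndufa4 family was first assigned to complex I and is now placed in complex IV. Of its genes ndufa4b gave the largest hair cell difference of any respiratory chain gene in all 3 comparisons. It measured 5.8 and 6.75 in hair cells, 3.48, 3.72, 3.59 and 3.48 in double-positive cells, and 3.52, 3.88, 4.15, 3.98 and 3.6 in mCherry+ cells, with 4.01, 4.47 and 4.9 as the lowest, median and highest of the non-fluorescent arrays. Hair cells stood above every other array, although their own 2 values differed by nearly a log2 unit. The difference was 2.71 ± 0.27 over double-positive (SE, adjusted p = 2.18e-07 in limma), 2.45 ± 0.26 over mCherry+ (adjusted p = 4.22e-07) and 1.81 ± 0.25 over non-fluorescent cells (adjusted p = 1.67e-05). Its duplicate ndufa4a measured 7.52 and 7.62 in hair cells, 7.24, 7.12, 7.01 and 6.83 in double-positive cells, and 6.78, 6.88, 6.72, 7.01 and 6.8 in mCherry+ cells. It was higher in hair cells by 0.52 ± 0.16 over double-positive (SE, adjusted p = 0.0161 in limma, and 0.0614 and 0.126 without hair cell replicate 1 and without replicate 2) and by 0.73 ± 0.15 over mCherry+ cells (adjusted p = 0.000915). Against non-fluorescent cells its difference was 0.33 ± 0.15 (SE, adjusted p = 0.0952 in limma, and 0.0295 with array medians set equal). The difference between duplicates was not itself tested.

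**Figure D2:**
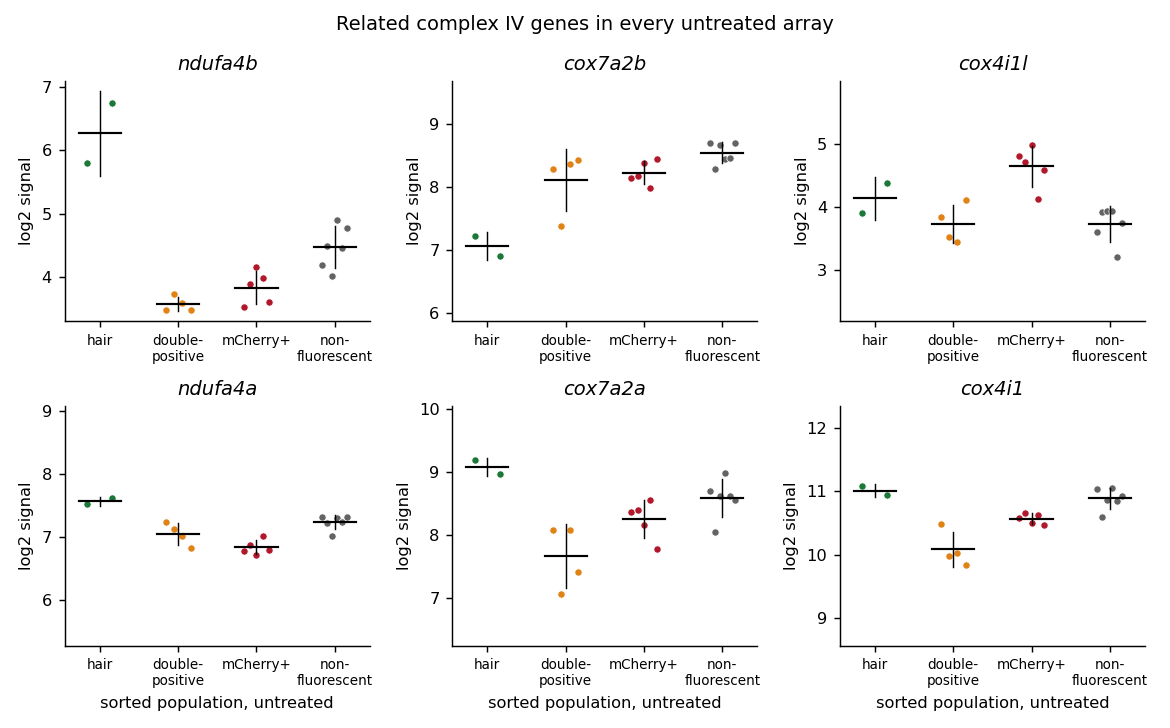
Log2 signal per array (y axes) of 3 duplicate or isoform gene pairs in the 4 untreated populations (x axes, hair cells leftmost); points are arrays, bars means and vertical lines SD. Hair cells are highest for ndufa4b (5.8 and 6.75) and lowest for cox7a2b (7.22 and 6.91). For cox4i1l the mCherry+ mean is highest (arrays 4.13 to 4.98), with a hair cell array (4.38) within that range.

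The genes of subunit IV of complex IV include cox4i1, cox4i1l and cox4i2. The main gene cox4i1 followed the complex, with 11.08 and 10.94 in hair cells, 10.48, 9.98, 10.03 and 9.84 in double-positive cells, and 10.58, 10.66, 10.5, 10.63 and 10.47 in mCherry+ cells. It was higher in hair cells by 0.93 ± 0.18 over double-positive cells (SE, adjusted p = 0.000602 in limma), and 0.44 ± 0.18 over mCherry+ cells did not pass the test (adjusted p = 0.0635). In contrast cox4i1l had its highest mean in mCherry+ cells, at 4.8, 4.72, 4.98, 4.13 and 4.59, against 3.21, 3.83 and 3.94 as the lowest, median and highest non-fluorescent arrays. These ranges did not overlap. Double-positive cells spanned 3.45 to 4.11. Hair cells spanned 3.9 to 4.38 and so overlapped the mCherry+ arrays. The signals of this gene are low, where the median of all probe sets was 3.873. The isoforms cox4i2, cox6a2 and cox7a1, of which the mammalian forms of the last pair are known from heart and skeletal muscle, were not called in any population comparison.

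The gene cox7a2l, known in mammals for joining complexes III and IV into supercomplexes, separated both mantle populations from the others. It measured 7.06 and 7.11 in hair cells, 5.66, 5.42, 5.79 and 5.43 in double-positive cells, and 5.82, 5.67, 4.97, 5.58 and 5.28 in mCherry+ cells, and spanned 6.79 to 7.78 with a median of 6.93 in non-fluorescent cells. Hair cells exceeded double-positive cells by 1.51 ± 0.26 (SE, adjusted p = 0.000167 in limma) and mCherry+ cells by 1.62 ± 0.25 (adjusted p = 4.57e-05). The subunit gene cox6b1 also had both mantle populations below the others, with 6.88 and 6.82 in hair cells, 4.76 to 5.86 in double-positive cells, 4.66 to 5.99 in mCherry+ cells and 6.18 to 7.16 in non-fluorescent cells.

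ATP synthase had 11 of 16 genes higher in hair cells than in double-positive cells (median 0.99) and 4 higher than in mCherry+ cells (median 0.4). The share called against mCherry+ cells was below that of all tested genes. The gene atp5mc1, which like atp5mc3a and atp5mc3b encodes the proton-carrying ring subunit c, measured 9.38 and 8.78 in hair cells. It measured 7.53, 6.25, 7.03 and 6.71 in double-positive cells, and 8.17, 8.21, 8.28, 8.86 and 9.05 in mCherry+ cells. Double-positive cells lay below every array of the other populations, since non-fluorescent cells spanned 7.92 to 9.4. Hair cells exceeded double-positive cells by 2.2 ± 0.38 (SE, adjusted p = 0.000168 in limma), and their ranges overlapped those of mCherry+ cells (0.56 ± 0.37, adjusted p = 0.269). The gene was also lower in double-positive than in mCherry+ cells, by -1.64 ± 0.30 (SE, adjusted p = 0.000486 in limma). The other subunit c genes atp5mc3a and atp5mc3b averaged 7.97 and 8.79 in hair cells and 7.73 and 8.35 in double-positive cells. For both genes the arrays of these populations overlapped.

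**Figure D3:**
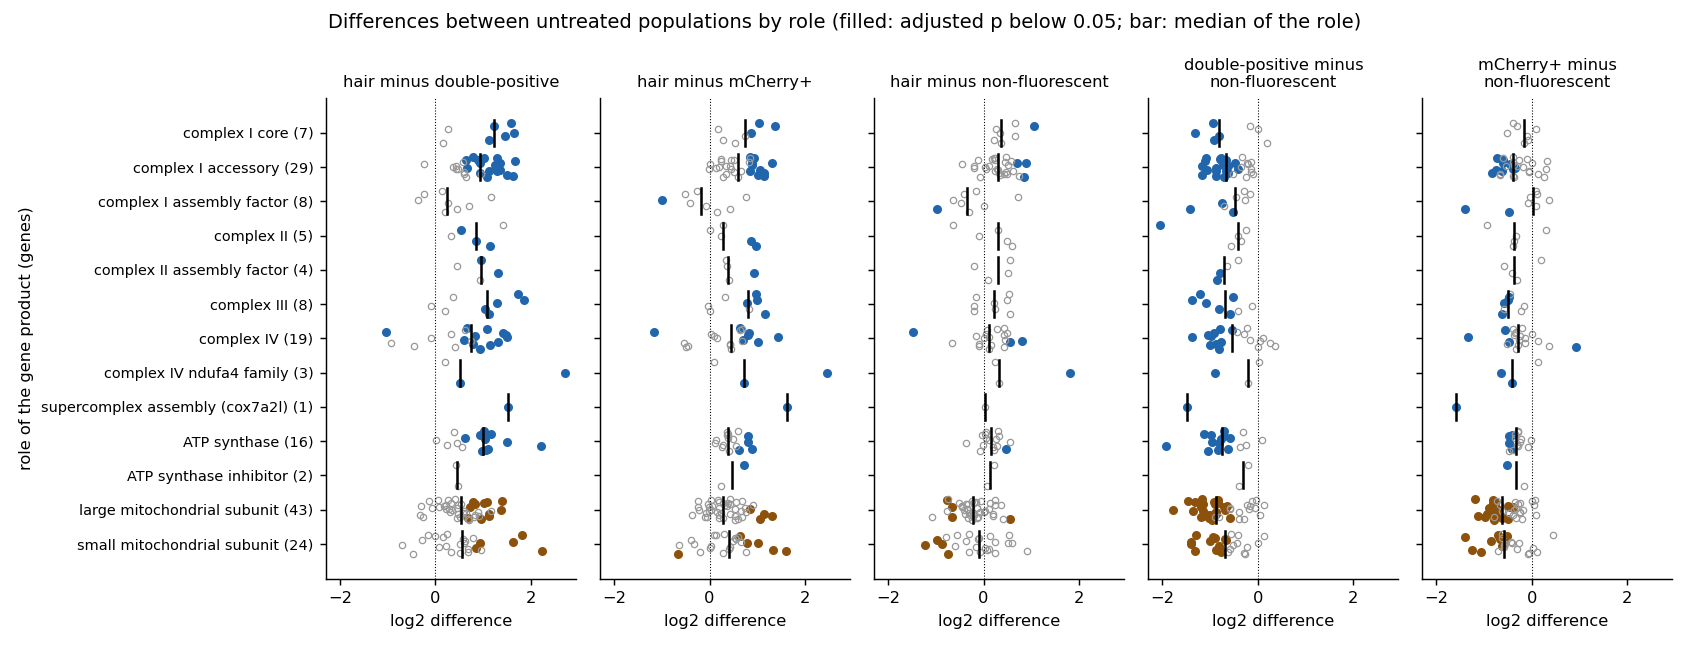
Log2 difference of each respiratory chain and mitochondrial ribosome gene (x axes), grouped by role (y axes), in 5 comparisons of untreated populations; filled points were called at an adjusted p below 0.05 and the bar is the median of the role. Medians of complex I core and accessory subunits, complex III, complex IV and ATP synthase lie at 0.75 or above for hair cells against double-positive cells, and the ribosome medians lie below 0 for both mantle populations against non-fluorescent cells.

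Against non-fluorescent cells hair cells differed in few members. Of 102 respiratory chain genes 8 were higher and 2 lower (9.8%, where 36.3% of all tested genes were called, 15.5% higher and 20.8% lower), with a median of 0.23 against -0.06 for all tested genes. With array medians set equal 17 were higher and 2 lower. The share of all tested genes under that setting is not given here, so the count shows no gain particular to these genes. In 4 alternative treatments of the array scale (deposited, medians equal, quantile normalized and a term for array sets) ndufa1, ndufa4b, ndufb5, ndufv1 and cox5ba were higher and cox7a2b lower, of which cox5ba is named after its values were seen. Of 67 ribosome genes 1 was higher and 7 lower (11.9%, median -0.21), and 2 higher and 4 lower with medians equal. Without hair cell replicate 1 and without replicate 2 the calls fell to 4 and 6 respiratory chain genes and to 3 and 1 ribosome genes, and to 5 ribosome genes without non-fluorescent replicate 4. Of the ribosome genes mrps24 measured 5.17 and 4.76 in hair cells and 5.88, 6.13 and 6.9 as the lowest, median and highest of the non-fluorescent arrays. The groups did not overlap, and the difference was -1.22 ± 0.33 (SE, adjusted p = 0.00666 in limma, and 0.111 without hair cell replicate 2). The complex I assembly factor ndufaf2 was also lower in hair cells, at 6.04 and 6.12 against 6.54 to 7.82 in non-fluorescent cells (-0.97 ± 0.31, SE, adjusted p = 0.0202 in limma, and 0.132 and 0.1 without hair cell replicate 1 and without replicate 2).

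Double-positive cells had many members of both sets lower than non-fluorescent cells, and mCherry+ cells many ribosome genes. In double-positive cells 59 of 102 respiratory chain genes were called and all were lower (57.8%, where 31.4% of all tested genes were called and 17.4% were called lower), with a median of -0.63 against -0.06 for all tested genes. Of 67 ribosome genes 41 were called, again all lower (61.2%, median -0.81). With array medians set equal, which shifted the all-gene median by 0.112, 48 respiratory chain and 35 ribosome genes were lower. The share of all tested genes lower under that setting is not given here. In mCherry+ cells 1 respiratory chain gene was higher and 26 lower (26.5%, where 32.3% of all tested genes were called, 15.1% higher and 17.2% lower), with a median of -0.34 against 0.01. With medians equal, a shift of 0.153, this became 4 higher and 10 lower, where 24.2% of all tested genes were higher and 12.7% lower. The respiratory chain share in mCherry+ cells was thus below that of all tested genes. The ribosome count was 32 of 67, all lower (47.8%, where 17.2% of all tested genes were called lower), with a median of -0.58, and 20 lower with medians equal. By symbol 23 of 43 mrpl genes and 9 of 24 mrps genes were lower in mCherry+ cells, and 28 and 13 in double-positive cells.

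Because of those shifts the gene differences against non-fluorescent cells are given with array medians set equal, while levels are as deposited. For cox7a2l the difference was -1.36 ± 0.20 in double-positive (SE, adjusted p = 3.89e-05 in limma) and -1.43 ± 0.19 in mCherry+ cells (adjusted p = 7.93e-06), with no overlap of either with the non-fluorescent arrays given above. For cox6b1 it was -1.26 ± 0.25 in double-positive (SE, adjusted p = 0.000755 in limma) and -1.18 ± 0.23 in mCherry+ cells (adjusted p = 0.000653). The assembly factor ndufaf2, which acts at a late step of complex I assembly in mammals, measured 5.54, 6.12, 5.02 and 5.83 in double-positive cells and 5.9, 5.97, 5.31, 5.64 and 5.43 in mCherry+ cells, all below the non-fluorescent arrays (6.54 to 7.82). It was lower by -1.31 ± 0.26 in double-positive (SE, adjusted p = 0.000679 in limma) and -1.25 ± 0.24 in mCherry+ cells (adjusted p = 0.000485). Against this, cox4i1l was higher in mCherry+ cells by 1.07 ± 0.19 (SE, adjusted p = 0.000179 in limma). In double-positive cells atp5mc1 was lower by -1.8 ± 0.27 (SE, adjusted p = 5.07e-05 in limma) and uqcrfs1 by -1.26 ± 0.19 (adjusted p = 4.52e-05). Their mCherry+ differences on the deposited scale were -0.28 (adjusted p = 0.472) and -0.5 (adjusted p = 0.043, and 0.129 with medians equal).

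In the mitochondrial ribosome mrps35 measured 5.23, 6.06, 5.78 and 6.06 in double-positive cells and 5.86, 5.18, 4.84, 5.92 and 4.82 in mCherry+ cells, against 6.34, 6.6 and 7.29 as the lowest, median and highest non-fluorescent arrays. Neither mantle population overlapped the non-fluorescent arrays. The mCherry+ difference was -1.24 ± 0.24 with medians equal (SE, adjusted p = 0.000425 in limma). The large subunit gene mrpl30 measured 6.74, 5.28, 7.3 and 7.03 in double-positive cells, 7.79, 7.81, 7.91, 8.09 and 9.28 in mCherry+ cells, and 7.85 to 8.58 in non-fluorescent cells. Double-positive cells were thus below all arrays of the other populations for mrpl30, by -1.65 ± 0.33 against non-fluorescent cells with medians equal (SE, adjusted p = 0.000887 in limma) and by -1.59 ± 0.35 against mCherry+ cells on the deposited scale (adjusted p = 0.00258). The gene mrps18a, whose mammalian product sits in the large subunit despite its name, measured 7.14 and 7.13 in hair cells, 5.98, 4.92, 4.24 and 4.54 in double-positive cells, and 5.72, 5.07, 6.24, 5.24 and 5.36 in mCherry+ cells. It gave the largest hair cell difference of the ribosome genes, 2.22 ± 0.41 over double-positive (SE, adjusted p = 0.000325 in limma) and 1.61 ± 0.40 over mCherry+ cells (adjusted p = 0.00347).

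Between the mantle populations the shares called were below those of all tested genes. Double-positive cells had 23 of 102 respiratory chain genes lower than mCherry+ cells and none higher (22.5%, where 25.3% of all tested genes were called, 12.6% higher and 12.8% lower; limma, 36 at an unadjusted p below 0.05), with a median of -0.29. With a term that splits the untreated arrays into 3 sets 7 were lower. Of the ribosome genes 1 was higher and 11 lower (17.9%, median -0.13), and 5 were lower with that term.

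Markers of other cell types differed along with these results. The 13 muscle markers averaged 3.35 to 3.45 in hair cells, 3.41 to 4.08 in double-positive and 3.68 to 4.35 in mCherry+ cells, against 4.74 to 6.36 in non-fluorescent cells, and 13, 12 and 13 of them were called lower. The 6 ionocyte markers, of a skin cell type rich in mitochondria, averaged 4.75 to 4.82, 4.52 to 5.17 and 4.62 to 5.88 in those populations, against 5.88 to 7.02 in non-fluorescent cells. The 7 keratinocyte markers averaged 7.88 to 7.98 in hair cells, 7.78 to 8.37 in double-positive and 5.94 to 7.09 in mCherry+ cells, against 9.26 to 10.31 in non-fluorescent cells. The 6 pigment cell markers averaged 5.87 to 5.9 in hair cells, 3.38 to 3.84 in double-positive and 3.67 to 4.36 in non-fluorescent cells. Among them gch2, singled out after its values were seen, measured 11.25 and 11.36 in hair cells and at most 4.09 in any other untreated array. The part of these cell types, and of the connective tissue cells whose markers are given above, in the results was not tested, and RMA values do not mark a gene as absent.

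Other lists of mitochondrial and energy genes were counted beside the same shares of all tested genes, 35.4% called against double-positive and 35.6% against mCherry+ cells. Of 20 genes for cytochrome c oxidase assembly and copper delivery 7 were higher in hair cells than in double-positive cells and 8 higher than in mCherry+ cells, with none lower in limma (8 and 10 in either direction at an unadjusted p below 0.05), which is 35.0% and 40.0% of the list. The copper chaperone gene cox17 measured 8.82 and 8.99 in hair cells, 6.86, 6.63, 7.15 and 6.97 in double-positive cells, 7.05, 7.47, 7.0, 7.23 and 6.89 in mCherry+ cells and 8.19 to 8.74 in non-fluorescent cells. Hair cells were highest, non-fluorescent cells next and both mantle populations lowest, with overlap only between the 2 mantle populations. Hair cells exceeded double-positive cells by 2.0 ± 0.20 (SE, adjusted p = 2.32e-07 in limma) and mCherry+ cells by 1.78 ± 0.19 (adjusted p = 5.73e-07). Of 21 tricarboxylic acid cycle genes 10 were higher in hair cells than in double-positive cells, while against mCherry+ cells 4 were higher and 3 lower (47.6% and 33.3% called). Citrate synthase, cs, which opens that cycle, was higher in hair cells by 1.39 ± 0.18 over double-positive (SE, adjusted p = 5.56e-06 in limma) and 1.61 ± 0.17 over mCherry+ cells (adjusted p = 4.62e-07). Of 32 glycolysis genes 14 were higher in hair cells than in non-fluorescent cells and 4 lower (median 0.57), where 15.5% of all tested genes were higher and 20.8% lower. For aldocb, an aldolase, hair cells measured 8.45 and 8.5 and non-fluorescent cells 4.94 to 6.47, a difference of 3.01 ± 0.31 (SE, adjusted p = 3.15e-07 in limma). The biogenesis list of 17 genes had 2 higher than in double-positive cells and 3 higher and 1 lower than in mCherry+ cells (11.8% and 23.5% called, below the shares of all tested genes). Its member ppargc1b, a coactivator of mitochondrial genes, measured 7.75 and 7.9 in hair cells, 5.86 to 6.48 in double-positive and 5.38 to 5.72 in mCherry+ cells.

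Counts for the remaining lists were mixed, and stand beside the shares of all tested genes given above for the same comparisons. Mitochondrial import (26 genes) had 7 higher and 3 lower in hair cells against double-positive cells, and 15 lower and 1 higher in double-positive against non-fluorescent cells. Its share called in hair cells against double-positive cells was near that of all tested genes. Its share lower in double-positive against non-fluorescent cells was above that of all tested genes. Chaperones and proteases (17 genes) had 7 higher in hair cells against double-positive and 6 against mCherry+ cells. Fusion and fission (14 genes) had 4 higher and 1 lower in hair cells against double-positive cells, a share near that of all tested genes. Uncoupling and carriers (15 genes) had 3 higher and 4 lower in the same comparison.

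After copper the set means stayed within 0.3 log2 units of their untreated values. In both populations 3 h and 5 h gave more calls than 1 h, as they did among all tested genes. In mCherry+ cells the respiratory chain mean was 7.06 untreated, 7.21 at 1 h, 7.17 at 3 h, 7.12 at 5 h and 7.19 at 11 h, with SD of 0.0637 to 0.204. In non-fluorescent cells it was 7.37 untreated, 7.53 at 1 h, 7.39 at 3 h, 7.52 at 5 h and 7.65 at 11 h (SD 0.0611 to 0.158). The mitochondrial ribosome mean was 5.68, 5.77, 5.72, 5.6 and 5.84 over the same times in mCherry+ cells and 6.22, 6.36, 6.08, 6.16 and 6.44 in non-fluorescent cells. The mean of all tested genes was 5.09 in untreated and 5.22 to 5.28 in treated non-fluorescent cells, which is also a rise.

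**Figure D4:**
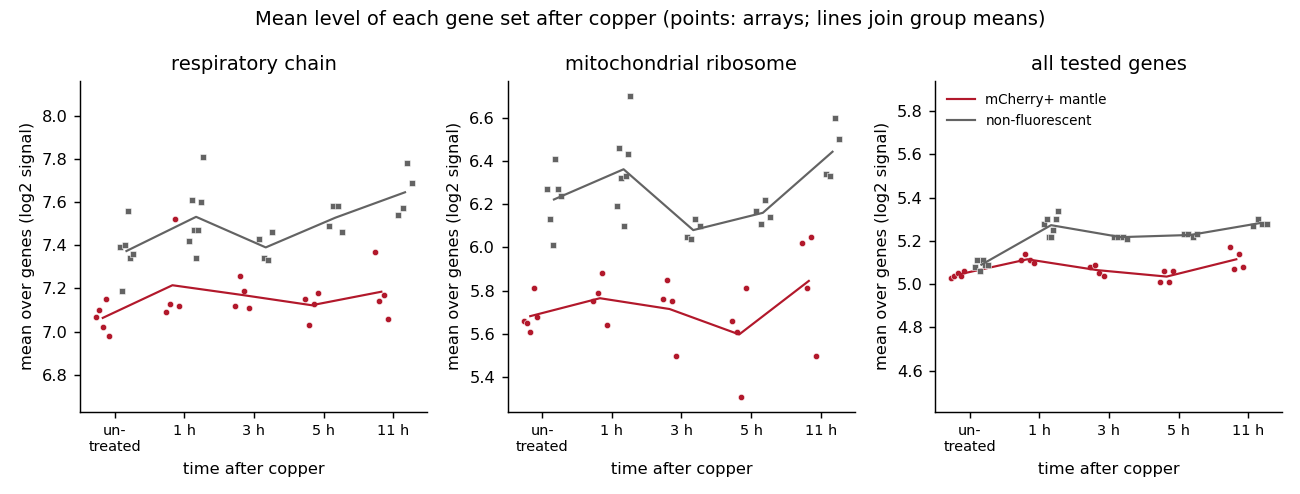
Mean log2 signal per array of the respiratory chain, the mitochondrial ribosome and all tested genes (y axes) in untreated cells and 1, 3, 5 and 11 h after copper (x axes) in mCherry+ and non-fluorescent cells; points are arrays and lines join group means. The non-fluorescent respiratory chain mean is lowest untreated (7.37) and highest at 11 h (7.65), and the mean of all tested genes is also above its untreated level (5.09) at each time.

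In mCherry+ cells against untreated, respiratory chain calls were 3 higher at 1 h, 16 higher and 5 lower at 3 h, 9 higher and 4 lower at 5 h, and 2 higher at 11 h. These are 2.94%, 20.6%, 12.7% and 1.96% of the 102 genes, where 1.5%, 14.9%, 12.4% and 4.0% of all tested genes were called. Of all tested genes 1.15% were higher and 0.353% lower at 1 h, 7.99% and 6.95% at 3 h, 5.85% and 6.55% at 5 h, and 3.13% and 0.872% at 11 h. Ribosome calls were 1 higher and 1 lower at 1 h (2.99%), 9 and 5 at 3 h (20.9%), 3 and 5 at 5 h (11.9%), and 1 and 2 at 11 h (4.48%). The widest gaps to the share of all genes were at 3 h, in both sets. In each population the deviations of replicate 4 from its group mean at 3 h and at 5 h correlated at -1 over all genes, a dependence between arrays whose cause was not tested. With a term that gives replicates 1 to 3 of both times a level of their own (here the array set term), estimates stay and errors grow. Fewer calls under this term after copper therefore follow from the larger errors and do not test for array sets. The respiratory chain counts then became 3 higher and 1 lower at 3 h and 1 and 1 at 5 h, and no ribosome gene was called at either time (14 and 9 at an unadjusted p below 0.05 in limma). Some counts rested on single arrays. The respiratory chain count at 1 h was 1 without mCherry+ untreated replicate 2, 3 or 5 or 1 h replicate 3, and at 3 h it was 13 without untreated replicate 5 or 3 h replicate 2. The ribosome count at 3 h was 8 or 9 without untreated replicate 4 or 5 or 3 h replicate 1, 2 or 4. At 1 h it was 1 without untreated replicate 1, 2 or 4 or 1 h replicate 1 or 3, and at 11 h it was 0 without untreated replicate 5 and 1 without 11 h replicate 1.

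In non-fluorescent cells against untreated, respiratory chain calls were 8 higher and 1 lower at 1 h, 11 and 6 at 3 h, 12 and 4 at 5 h, and 14 higher at 11 h. These are 8.82%, 16.7%, 15.7% and 13.7%, where 11.4%, 23.9%, 16.4% and 8.69% of all tested genes were called. Of all tested genes 10.5% were higher and 0.94% lower at 1 h, 17.3% and 6.61% at 3 h, 12.9% and 3.47% at 5 h, and 7.89% and 0.8% at 11 h. With array medians set equal, which moved the median of all genes by -0.197, -0.102, -0.106 and -0.143 at the 4 times, the higher and lower counts were 0 and 1 at 1 h, 8 and 10 at 3 h, 9 and 6 at 5 h, and 2 higher at 11 h. Ribosome calls were 3 higher at 1 h (4.48%), 9 higher and 12 lower at 3 h (31.3%), 9 and 9 at 5 h (26.9%) and 3 higher at 11 h (4.48%). With medians equal they were 0 and 2, 7 and 13, 6 and 10, and 2 and 1. For both sets the shares of all tested genes with medians equal are not given here. With the array set term the ribosome count was 1 higher at 3 h and 1 higher at 5 h, and the respiratory chain counts were 3 and 2 at 3 h and 4 higher at 5 h. At 1 h and 11 h that term left 3 and 2 ribosome genes called. Arrays that moved a count were 1 h replicate 3 (5 respiratory chain genes without it), 5 h replicate 2 (10) and, at 11 h, untreated replicates 2, 3, 5 and 6 and 11 h replicates 1 and 3 (6 to 9). For the ribosome they were untreated replicate 2 at 1 h (0), untreated replicate 5 and 5 h replicate 4 at 5 h (11 and 10), and 11 h replicate 1 (1).

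Among single genes cox8a, a small subunit of complex IV, rose in both populations. In mCherry+ cells it measured 6.59, 6.85, 6.67, 6.73 and 6.38 untreated, 7.66, 7.02, 7.91 and 7.38 at 1 h, 7.04, 7.31, 7.18 and 6.94 at 3 h, 6.83, 7.06, 6.93 and 7.17 at 5 h, and 7.42, 7.4, 7.73 and 7.48 at 11 h. All arrays of 1 h and 11 h were above all untreated arrays, by 0.85 ± 0.14 at 1 h (SE, adjusted p = 0.00125 in limma) and 0.86 ± 0.14 at 11 h (adjusted p = 0.000391). In non-fluorescent cells it spanned 6.72 to 7.01 with a median of 6.84 untreated and 7.25 to 7.54 with a median of 7.3 at 1 h, and measured 7.92, 7.78, 7.68 and 8.11 at 3 h, 7.76, 8.2, 8.01 and 7.68 at 5 h, and 6.86, 7.28, 7.17 and 7.21 at 11 h. Here it was highest at 3 h and 5 h, with no overlap with untreated or 1 h arrays. With medians equal the differences were 0.92 ± 0.14 at 3 h (SE, adjusted p = 1.36e-05 in limma) and 0.96 ± 0.14 at 5 h (adjusted p = 1.72e-05), and at 1 h the 0.33 ± 0.12 did not pass (adjusted p = 0.0954, and 0.00309 on the deposited scale). With the array set term the non-fluorescent calls at 3 h and 5 h were kept (adjusted p = 0.00284 and 0.00394 in limma).

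The family member ndufa4a also rose in both populations. In mCherry+ cells it measured 6.72 to 7.01 untreated and 7.61, 7.57, 7.37 and 7.94 at 5 h, a difference of 0.78 ± 0.14 (SE, adjusted p = 0.000383 in limma, and 0.0523 with the array set term). In non-fluorescent cells it measured 7.02 to 7.32 untreated and 7.87, 8.18, 8.08 and 7.8 at 5 h, a difference of 0.64 ± 0.14 with medians equal (SE, adjusted p = 0.00186 in limma). Neither population's 5 h arrays overlapped its untreated arrays.

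**Figure D5:**
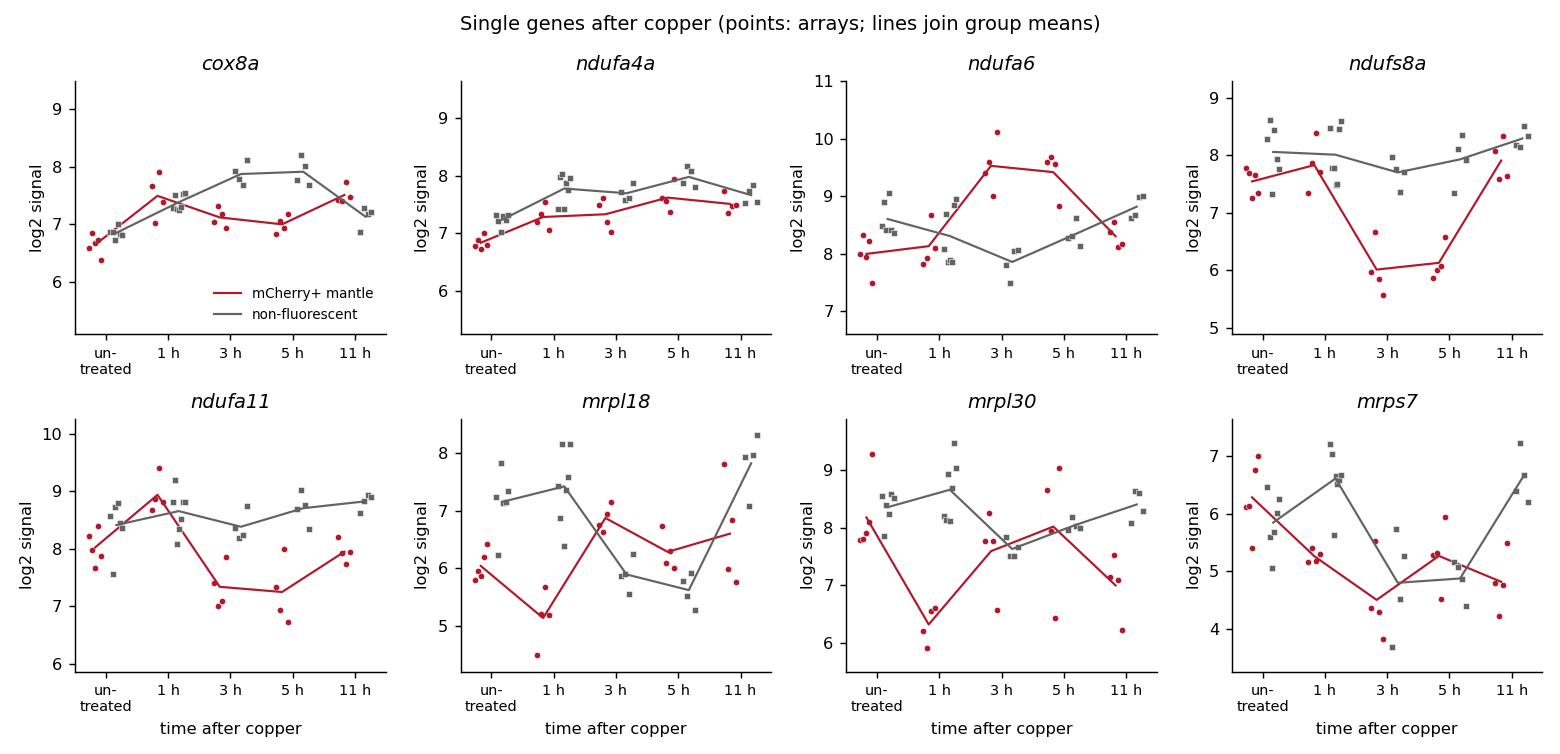
Log2 signal per array (y axes) of 8 respiratory chain and mitochondrial ribosome genes in untreated cells and 1, 3, 5 and 11 h after copper (x axes) in mCherry+ and non-fluorescent cells; points are arrays and lines join group means. In mCherry+ cells ndufa6 is highest and ndufs8a lowest at 3 h and 5 h, and the mrpl30 mean is lowest at 1 h (arrays 5.91 to 6.6).

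Complex I subunits moved in opposite directions in mCherry+ cells. The accessory subunit ndufa6 measured 8.0, 8.33, 7.95, 8.22 and 7.49 untreated, 7.83, 7.92, 8.68 and 8.1 at 1 h, 9.4, 9.6, 9.0 and 10.12 at 3 h, 9.6, 9.68, 9.57 and 8.83 at 5 h, and 8.38, 8.55, 8.12 and 8.17 at 11 h. All arrays of 3 h and 5 h were above all arrays of the other times. The differences from untreated were 1.54 ± 0.24 at 3 h (SE, adjusted p = 2.36e-05 in limma) and 1.42 ± 0.24 at 5 h (adjusted p = 0.000102), with adjusted p of 0.0101 and 0.0261 under the array set term. The core subunit ndufs8a, an iron-sulphur protein, measured 7.77, 7.69, 7.25, 7.66 and 7.35 untreated, 7.34, 7.87, 8.39 and 7.71 at 1 h, 5.97, 6.66, 5.84 and 5.57 at 3 h, 5.86, 6.01, 6.07 and 6.57 at 5 h, and 8.08, 7.59, 8.33 and 7.63 at 11 h. Its arrays of 3 h and 5 h were below all others, by -1.53 ± 0.26 at 3 h (SE, adjusted p = 8.33e-05 in limma) and -1.42 ± 0.26 at 5 h (adjusted p = 0.000324), with adjusted p of 0.0194 and 0.0467 under the array set term. In non-fluorescent cells ndufs8a spanned 7.32 to 8.61 untreated and 7.36 to 7.97 at 3 h, which overlap. The accessory subunit ndufa11 measured 8.68, 8.86, 9.4 and 8.82 at 1 h in mCherry+ cells, 7.4, 7.0, 7.1 and 7.86 at 3 h and 7.33, 6.94, 8.0 and 6.73 at 5 h, lower than at 1 h by -1.6 ± 0.25 at 3 h (SE, adjusted p = 2.1e-05 in limma) and -1.69 ± 0.25 at 5 h (adjusted p = 1.13e-05). Untreated mCherry+ arrays of ndufa11 spanned 7.66 to 8.39. All its 1 h arrays lay above that range, and its 3 h and 5 h arrays overlapped it.

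In non-fluorescent cells the core subunit ndufs7, an iron-sulphur protein, measured 6.95 to 8.52 untreated and 9.39, 9.32, 9.58 and 10.79 at 5 h, with no overlap and a difference of 1.84 ± 0.33 with medians equal (SE, adjusted p = 0.000268 in limma). The assembly factor ndufaf2 was lowest at 3 h, at 5.6, 6.2, 5.74 and 5.79, against 6.54 to 7.82 untreated, and was lower by -1.31 ± 0.21 with medians equal (SE, adjusted p = 2.84e-05 in limma). It then measured 6.8, 6.64, 6.77 and 6.79 at 5 h and 7.31, 7.63, 7.35 and 7.67 at 11 h, within the untreated range. The ATP synthase stalk subunit gene atp5pb was lower at 3 h by -0.89 ± 0.16 and at 5 h by -0.94 ± 0.16 with medians equal (SE, adjusted p = 0.000127 and 0.00011 in limma). With the array set term its 3 h call was kept (adjusted p = 0.0441) and the 5 h call was not (adjusted p = 0.0539).

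In the mitochondrial ribosome mrpl30 fell at 1 h in mCherry+ cells. It measured 7.79, 7.81, 7.91, 8.09 and 9.28 untreated, 6.2, 5.91, 6.55 and 6.6 at 1 h, 7.76, 8.26, 7.77 and 6.57 at 3 h, 8.66, 7.94, 6.43 and 9.04 at 5 h, and 7.14, 7.53, 7.09 and 6.22 at 11 h. All 1 h arrays were below all untreated ones, by -1.86 ± 0.35 (SE, adjusted p = 0.00385 in limma, and 0.00677 with the array set term). The small subunit gene mrps7 measured 4.79, 4.23, 4.76 and 5.49 at 11 h in mCherry+ cells, against 6.12, 6.14, 5.4, 6.76 and 7.01 untreated. The lowest untreated array was below the highest at 11 h, and the difference was -1.47 ± 0.36 (SE, adjusted p = 0.0142 in limma). In non-fluorescent cells mrps25 at 11 h measured 9.52, 7.6, 8.6 and 7.7 against 6.33 to 7.44 untreated, higher by 1.31 ± 0.36 with medians equal (SE, adjusted p = 0.0341 in limma). On the deposited scale its adjusted p was 0.011, and 0.0876 without 11 h replicate 1.

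Comparisons within treated arrays avoid the offset between treated and untreated sets. In mCherry+ cells against 1 h, respiratory chain calls were 6 higher and 7 lower at 3 h (12.7%, where 13.7% of all tested genes were called, 5.18% higher and 8.55% lower) and 7 and 7 at 5 h (13.7%, against 13.5%, 4.47% higher and 9.01% lower). At 11 h limma called 0 of 102 (12 at an unadjusted p below 0.05) and 22 of all tested genes (0.114%, 0.0363% higher and 0.0779% lower). In non-fluorescent cells they were 8 higher and 20 lower at 3 h (27.5%, against 21.5%, 9.3% higher and 12.2% lower), 10 and 14 at 5 h (23.5%, against 20.5%, 8.83% higher and 11.6% lower) and 1 higher at 11 h (0.98%, against 2.13%, 0.987% higher and 1.14% lower). With medians equal the non-fluorescent counts were 11 and 10 at 3 h and 13 and 11 at 5 h, and without 3 h replicate 2 the 3 h count was 16. Under the array set term the respiratory chain counts were 3 and 3 at 3 h and 2 and 3 at 5 h in mCherry+ cells, and 3 and 3, and 3 and 1, in non-fluorescent cells. Ribosome calls against 1 h were 6 and 5 at 3 h and 3 and 5 at 5 h in mCherry+ cells (16.4% and 11.9%), and 7 at 3 h without 1 h replicate 2. In non-fluorescent cells they were 8 and 13 at 3 h and 7 and 11 at 5 h (31.3% and 26.9%). The ribosome counts with that term were 1 and 1 at 3 h and 1 lower at 5 h in mCherry+ cells, and 5 lower at each of those times in non-fluorescent cells.

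Against 1 h the large subunit gene mrpl18 moved up in mCherry+ and down in non-fluorescent cells. It measured 4.49, 5.2, 5.67 and 5.19 at 1 h and 6.76, 6.64, 6.95 and 7.16 at 3 h in mCherry+ cells, higher by 1.74 ± 0.35 (SE, adjusted p = 0.000598 in limma). In non-fluorescent cells it spanned 6.39 to 8.17 with a median of 7.43 at 1 h and measured 5.87, 5.9, 5.56 and 6.25 at 3 h and 5.78, 5.52, 5.92 and 5.27 at 5 h. There it was lower by -1.53 ± 0.31 at 3 h (SE, adjusted p = 0.000358 in limma) and -1.8 ± 0.31 at 5 h (adjusted p = 5.23e-05). In each population these groups did not overlap. Untreated arrays spanned 5.79 to 6.42 in mCherry+ cells, above all 1 h and below all 3 h arrays, and 6.24 to 7.83 in non-fluorescent cells. The responses of the populations at 3 h, each taken against untreated cells and not against 1 h, differed by 2.19 ± 0.45 with medians equal (SE, adjusted p = 0.00125 in limma). The adjusted p of that difference was 0.105 in limma with the array set term on the deposited scale.

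The test of the difference itself, the mCherry+ response minus the non-fluorescent response, called more members at 3 h and 5 h than at 1 h and 11 h. The same held among all tested genes. Respiratory chain calls were 1 higher at 1 h (0.98%), 10 higher and 5 lower at 3 h (14.7%), 3 and 6 at 5 h (8.82%) and 1 lower at 11 h (0.98%), where 2.22%, 14.2%, 6.85% and 1.3% of all tested genes were called. Of all tested genes 0.317% were higher and 1.91% lower at 1 h, 4.74% and 9.47% at 3 h, 1.56% and 5.29% at 5 h, and 0.254% and 1.04% at 11 h. With medians equal they were 1 higher, 12 and 3, 6 and 3, and none at 11 h (limma, 12 at an unadjusted p below 0.05). Ribosome calls were 2 lower at 1 h (2.99%), 10 and 6 at 3 h (23.9%), 4 and 3 at 5 h (10.4%) and 2 lower at 11 h (2.99%). With medians equal they were 1 lower, 14 and 4, 5 higher, and 1 lower. With the array set term the calls of 3 h and 5 h fell to ndufa6 at 3 h alone among all 169 genes. The estimates were the same and the errors larger (for ndufa6 at 3 h an SE of 0.46 against 0.33 on the deposited scale). For ndufa6 the responses differed by 2.38 ± 0.32 with medians equal (SE, adjusted p = 1.45e-05 in limma), since it was higher in all 4 mCherry+ arrays of 3 h than in untreated ones and in all 4 non-fluorescent arrays (7.81, 7.5, 8.05 and 8.07) lower than in untreated ones (8.37 to 9.05). For mrpl30 the 1 h responses differed by -1.99 ± 0.45 (SE, adjusted p = 0.0143 in limma) and for mrps7 the 11 h responses by -2.16 ± 0.49 (adjusted p = 0.0284), both with medians equal. Leaving out single arrays turned the counts of 1 and 2 at 1 h and 11 h into 0 to 2. At 3 h the respiratory chain count was 8 or 9 without mCherry+ untreated replicate 4, mCherry+ 3 h replicate 4 or non-fluorescent 3 h replicate 3, and at 5 h the ribosome count was 2 to 4 without mCherry+ untreated replicate 5 or non-fluorescent 5 h replicate 1, 2 or 3.

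Markers of other cell types also differed with time. In mCherry+ cells the 7 keratinocyte markers averaged 5.94 to 7.09 untreated, 6.63 to 7.74 at 1 h, 7.61 to 9.29 at 3 h, 6.41 to 8.72 at 5 h and 7.42 to 8.08 at 11 h. The 8 hair cell markers averaged 4.34 to 5.03 untreated and 4.56 to 4.92 in all treated mCherry+ arrays. Mantle and support markers averaged 7.41 to 8.51 at 1 h, 7.15 to 7.72 at 3 h, 7.8 to 8.16 at 5 h and 7.41 to 9.1 at 11 h there. Connective tissue markers averaged 9.27 to 10.02, 9.11 to 9.58, 9.28 to 9.95 and 9.33 to 9.6 at those times. The untreated mCherry+ ranges of both lists are given above. In non-fluorescent cells the 2 glia markers averaged 5.16 to 6.5 untreated, 6.73 to 8.1 at 1 h, 7.45 to 8.19 at 3 h, 6.6 to 7.74 at 5 h and 7.05 to 7.74 at 11 h, so that no treated array overlapped the untreated ones. The 5 connective tissue markers averaged 8.93 to 9.47 untreated, 9.28 to 10.13 at 1 h, 9.44 to 10.18 at 3 h, 8.88 to 9.55 at 5 h and 8.98 to 9.98 at 11 h there. The part of these cell types in the gene changes was not tested.

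Across all 12 groups most members correlated with the median profile of their set, as a description over group means that share arrays and scale. That profile was made from these same genes. The share of all tested genes above the same r was not computed, so the counts do not mark a profile as particular to a set. Pearson's r of a gene with the median profile of its set had a median of 0.686 over the respiratory chain genes (n = 12 groups, range -0.270 to 0.942), with 71 of 102 above 0.5 and 5 below 0. For the ribosome genes the median was 0.618 (range -0.208 to 0.921), with 49 of 67 above 0.5 and 1 below 0. The respiratory chain genes least like their set were ndufaf7, ndufa4l2a, cox4i2, cox4i1l and cox6a2, which are an assembly factor and isoforms. Of these ndufa4l2a, cox4i1l and cox6a2 had low signals (means of 4.017, 4.071 and 4.327 over all arrays, where the median of all probe sets was 3.873). Those of ndufaf7 and cox4i2 were 5.112 and 6.32. The ribosome genes least like theirs were mrpl2, mrpl34, mrpl14, mrps14 and mrpl21.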

How the data were processed

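The deposited values of 52 zebrafish gene arrays were used. They are log2 signals after RMA with Partek 6.6, per the submitters' processing notes, and the log base was inferred from the values. A zebrafish platform table gave 1 symbol to 20806 of the 75212 probe sets, several to 855 and none to 53551. Each of the 19260 genes was read from its probe set with the highest mean over all arrays. Another 12 probe sets that match the symbol rule carry several symbols and were left out.

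Groups came from the sample labels. Linear models (lmFit and eBayes, limma 3.58.1, R 4.3.3) were run, on the 17 untreated arrays and on the 42 mCherry+ and non-fluorescent arrays, with Benjamini-Hochberg adjustment over 19260 genes and a threshold of 0.05. Tables and plots used Python 3.11.15, pandas 2.3.3, numpy 2.4.6 and matplotlib 3.10.9. The number of arrays limits the precision. Alternatives were array medians set equal, quantile normalization, replicate numbers as a block, dim genes left out, the mean of probe sets, and each array left out in turn. Counts under these and the array set term stand without the all-gene shares of the same setting. The exception is mCherry+ against non-fluorescent cells with medians equal. An array set term was chosen after seeing the data. In the copper fit, where deviations of replicate 4 at 3 h and 5 h correlate at -1, the term gives replicates 1 to 3 of those times a level of their own. In the untreated fit, which holds no such arrays, it has 3 levels that the labels do not give. The first joins mCherry+ arrays 1 and 2 to non-fluorescent arrays 5 and 6, the second mCherry+ arrays 3 and 4 to non-fluorescent array 1, and the third holds all others.

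Members and gene lists were chosen with earlier results of these data known. Genes named are, per comparison and set, up to 4 called with the largest increases and up to 4 with the largest decreases among groups that do not overlap (up to 2 each way for differences of responses). A fixed set of subunits, duplicate pairs, up to 3 called genes per other list and the 5 genes least like each set were added. On simulated data the fit recovered 36% of genes changed by 1 log2 unit and 90% of those changed by 2 in hair cells against double-positive cells, and 52% and 94% in mCherry+ cells at 3 h. Recovery was 76% and 96% in untreated mCherry+ against non-fluorescent cells, and 24% and 84% for the difference of responses at 11 h. Simulated arrays were drawn independently, without array sets or the dependence of replicate 4. They held 100 changed genes of each size, far fewer than were called in the real untreated and 3 h comparisons. The adjusted threshold depends on that number, so these recoveries do not give the share of real changes missed. Same-numbered arrays of different groups had a median correlation of -0.002 in both fits, close to that of other pairs (0.002 and 0.001). Single same-numbered pairs ranged from -0.597 to 0.34 in the untreated fit and from -1 to 0.34 in the copper fit. A median cannot exclude pairing in some groups.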

Additional observations from a re-analysis of the deposited data

Results flagged for a closer look

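Within groups of 4 to 10 arrays 253 sets of values were examined and 10 held an array far from the others by Dixon's test, where chance flags about 1 in 20. The respiratory chain mean of mCherry+ 1 h replicate 3 (7.52) was the highest of its group. Single genes with an array far from the others were ndufa4a in untreated non-fluorescent replicate 3 (7.02), cox7a2b in double-positive replicate 2 (7.38), ndufa6 in mCherry+ 5 h replicate 4 (8.83) and atp5fa1 in mCherry+ 11 h replicate 4 (7.57). In untreated non-fluorescent cells they were cox7a2l in replicate 1 (7.78), and mrps18a (5.35), ndufa11 (7.57) and sdha (7.31) in replicate 2. In untreated mCherry+ cells mrpl30 stood out in replicate 5 (9.28).

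The mCherry+ and non-fluorescent responses to copper differed, on the deposited scale in limma, for these named genes, with the mCherry+ minus non-fluorescent difference given. At 1 h they were ndufs6 (0.98), mrpl30 (-2.16) and mrps7 (-1.79). At 3 h they were ndufa6 (2.28), ndufs3 (1.71), ndufaf5 (-1.68), ndufs8a (-1.17), mrpl14 (2.49), mrpl20 (2.32), mrpl17 (-1.72) and mrpl24 (-1.47). At 5 h they were ndufa6 (1.69), cox7a2l (1.51), ndufs7 (-1.78), cox5bb (-1.64), mrps30 (1.95), mrpl20 (1.89), mrps21 (-1.6) and mrpl41 (-1.35). At 11 h they were ndufab1b (-1.28), mrps7 (-2.25) and mrpl19 (-2.18). With array medians set equal mrps7 at 1 h (adjusted p = 0.0593 in limma), mrpl24 at 3 h (0.0651), cox5bb (0.0626), mrps21 (0.0577) and mrpl41 (0.0895) at 5 h, and ndufab1b (0.0675) and mrpl19 (0.0608) at 11 h were no longer called. With the array set term ndufa6 at 3 h (adjusted p = 0.0166 in limma) was the only 1 of the 3 h and 5 h genes still called, and ndufs6 at 1 h (0.0576), ndufab1b (0.0601) and mrpl19 (0.0594) at 11 h were not called either.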

How the results depend on the processing

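Of 48 counts of called genes (2 sets in 24 comparisons), leaving out dim genes moved 0 by over 1.5 times, the mean of probe sets 1, array medians set equal 9, the replicate block 9, quantile normalization 10 and the array set term 31. Where the array set term lowered counts after copper, estimates were unchanged and errors larger. For the other moved counts the cause was not tested. Counts below are respiratory chain, then mitochondrial ribosome genes, and a single count names its set. With array medians set equal they were 19 respiratory chain genes for hair cells against non-fluorescent cells, 14 and 20 for mCherry+ against non-fluorescent cells, and, for non-fluorescent cells, respiratory chain counts of 1 at 1 h and 2 at 11 h against untreated and 2 at 11 h against 1 h. The differences of responses gave 1 ribosome gene at 1 h, and 0 and 1 at 11 h. Quantile normalization gave 1 and 1 for mCherry+ cells at 1 h, 1 respiratory chain gene at 11 h, 4 at 1 h and 2 at 11 h in non-fluorescent cells, 0 ribosome genes for their 11 h against 1 h, and 0 and 1 for the differences at 1 h and at 11 h. The replicate block, for numbers not shown to pair the arrays, gave a respiratory chain count of 6 for hair cells against non-fluorescent cells. Its respiratory chain counts in non-fluorescent cells were 5 at 1 h, 17 at 3 h against 1 h and 0 at 11 h against 1 h. That block also gave 0 respiratory chain genes for the difference at 1 h, 1 and 1 for mCherry+ cells at 1 h, and 0 and 1 for the difference at 11 h. The mean of probe sets gave 2 respiratory chain genes for non-fluorescent 11 h against 1 h. For sdha, which has 2 probe sets, it reversed the sign of the difference at 5 h against 1 h in non-fluorescent cells, to 0.65 (adjusted p = 0.0383 in limma).

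The array set term gave 6 and 4 for hair cells against non-fluorescent cells, 27 ribosome genes for double-positive against non-fluorescent cells, 3 for hair cells against mCherry+ cells, and 7 and 5 for double-positive against mCherry+ cells. After copper it gave 1 respiratory chain gene at 1 h, 4 and 0 at 3 h and 2 and 0 at 5 h in mCherry+ cells, and 5 and 1 at 3 h and 4 and 1 at 5 h in non-fluorescent cells. Against 1 h it gave 6 and 2 at 3 h and 5 and 1 at 5 h in mCherry+ cells, and 6 and 5 at 3 h, 4 and 5 at 5 h and 0 respiratory chain genes at 11 h in non-fluorescent cells. The differences of responses gave 0 respiratory chain genes at 1 h, 1 and 0 at 3 h, 0 and 0 at 5 h, and 0 and 1 at 11 h.

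With each array left out in turn, the counts ranged over 38 to 63 and 5 to 21 for hair cells against double-positive cells, 18 to 41 and 2 to 11 for hair cells against mCherry+ cells, 4 to 13 and 1 to 10 for hair cells against non-fluorescent cells, 47 to 62 and 31 to 43 for double-positive against non-fluorescent cells, 19 to 35 and 24 to 35 for mCherry+ against non-fluorescent cells and 18 to 28 and 9 to 14 for double-positive against mCherry+ cells. Against untreated mCherry+ cells they were 1 to 3 and 1 to 2 at 1 h, 13 to 23 and 8 to 15 at 3 h, 10 to 14 and 6 to 9 at 5 h and 2 to 3 and 0 to 3 at 11 h. Against 1 h in the same cells they were 11 to 15 and 7 to 13 at 3 h, 10 to 14 and 6 to 10 at 5 h and 0 to 0 and 0 to 1 at 11 h. Against untreated non-fluorescent cells they were 5 to 9 and 0 to 4 at 1 h, 15 to 20 and 15 to 22 at 3 h, 10 to 18 and 10 to 18 at 5 h and 6 to 15 and 1 to 4 at 11 h. Against 1 h in the same cells they were 16 to 29 and 14 to 23 at 3 h, 18 to 27 and 12 to 19 at 5 h and 0 to 3 and 0 to 1 at 11 h. For the differences of responses they were 0 to 1 and 1 to 2 at 1 h, 8 to 17 and 11 to 18 at 3 h, 6 to 12 and 2 to 8 at 5 h and 0 to 2 and 1 to 2 at 11 h. Array number limits all counts, most in the hair cells with 2 arrays.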
